A study of Mus musculus with 6 samples.

Results

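The 8 genes described here encode the chains of collagens I, III, V and VI: Col1a1, Col1a2, Col3a1, Col5a1, Col5a2, Col6a1, Col6a2 and Col6a3. Every probe set of the array that is annotated to exactly 1 of these symbols was taken, whatever its values, which gave 16 of 45037 probe sets. The measurements are 6 Affymetrix Mouse Genome 430 2.0 arrays of primary ovarian surface epithelium cells from virgin female mice of the FVB/N strain, aged 8 weeks, with no transgene or other allele named in the labels. ALDH-positive cells (3 arrays) were set against ALDH-negative cells (3 arrays), both sorted after 24 hours in culture and staining for aldehyde dehydrogenase (ALDH) activity with ALDEFLUOR. The mice were combined into 3 independent pools, 10 animals to a pool, and every pool was sorted into both fractions with 1 array for each, so the fractions are compared within pools. The sort marks enzyme activity and not a cell lineage, so each fraction can hold more than 1 cell type.

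Collagens are secreted proteins of the extracellular matrix whose chains wind into a triple helix. Collagens I, III and V are fibrillar: collagen I, built from the chains of Col1a1 and Col1a2, gives fibrils their strength, collagen III from Col3a1 is common in compliant tissues, and collagen V from Col5a1 and Col5a2 starts fibrils and limits their width. Collagen VI, from the chains of Col6a1, Col6a2 and Col6a3, forms beaded microfilaments that link cells and basement membranes to the fibrils. The surface epithelium of the ovary rests on a basement membrane above the tunica albuginea, a sheet rich in fibrillar collagen that is opened at ovulation and rebuilt afterwards.

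The array of ALDH-negative cells from pool 2 was unlike the other 5. It correlated with them at 0.558 to 0.679 across probe sets, while they correlated with each other at 0.850 to 0.974, and its 3′ beta-actin control read 5.03, against 9.56 to 11.04 on them. The values below are quantile-normalized log2 signals, and a difference is ALDH-positive minus ALDH-negative within a pool. A difference without pool 2 is given wherever leaving that pool out turned its sign or moved it by more than 1.5 times, and for the brightest probe set of each tested gene. Of the 16 collagen probe sets, 14 were bright enough on average to be tested; the filter removed the dimmest 40% of probe sets, those with a mean log2 signal below 2.73. Of the 14, the dimmer Col3a1 probe set passed through the brighter fraction alone, with an ALDH-negative mean of 1.53. Counts over the 14 are therefore descriptions.

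Col3a1, Col6a2, Col1a1 and Col5a2 read higher in ALDH-positive cells in every pool, by log2 means of 3.90, 3.63, 1.94 and 1.57 at the brightest probe set of each gene. Their partner chains Col1a2, Col5a1 and Col6a1 differed less, by 0.61, 0.11 and 0.78, and Col6a3 was too dim to be tested. No collagen probe set passed at an adjusted p of 0.05 in the paired limma fit over all 27022 probe sets. Nor did any other probe set pass (0%). Of the 27022, 661 had an unadjusted limma p under 0.05, a share smaller than 0.05 itself. The smallest adjusted p of a collagen probe set was 0.895. At an unadjusted p under 0.05, 7 of the 14 tested collagen probe sets were higher in ALDH-positive cells, beside 2.04% of all probe sets, and 0 were lower, beside 0.403%. Without pool 2 that count was 8, beside 2.29%, and again none passed after adjustment.

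Of the 14 tested collagen probe sets, 9 lay higher in ALDH-positive cells in all 3 pools, beside 11.5% of all probe sets tested. None lay lower in all 3 pools, beside 10.8%. In pools 1 and 3 alone 10 lay higher in both, beside 25.7%. All ALDH-positive arrays lay above all ALDH-negative arrays for 7 of the 14, beside 3.49%. These counts overlap in what they measure: probe sets of 1 gene share the samples, and the pairs of Col3a1, of Col5a2 and of Col6a2 each target the same annotated sequence, as do 2 of the 3 Col5a1 probe sets. An array of bulk RNA cannot tell apart a fraction with fewer cells of a type from one with less of an RNA per cell.

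**Figure D1:**
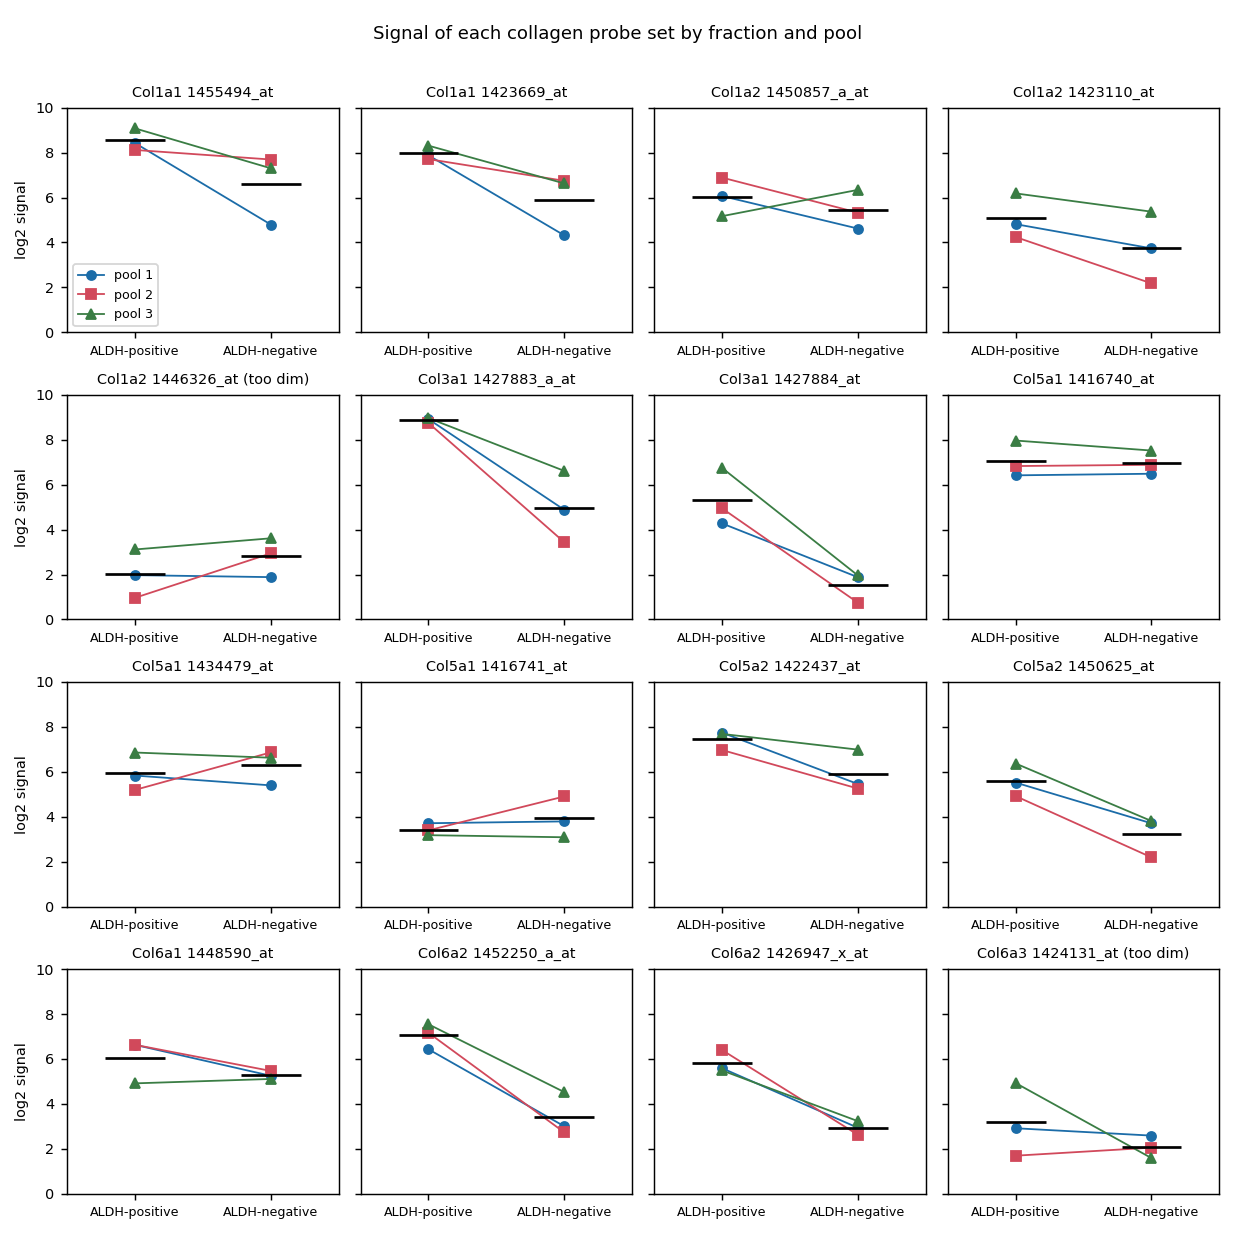
Normalized log2 signal (vertical axis) of the 16 collagen probe sets in ALDH-positive cells (left of each panel) and ALDH-negative cells (right); each line joins the fractions of 1 pool, and black bars are means of 3 pools. Col3a1, Col6a2, Col1a1 and the dimmer Col5a2 probe set show no overlap between the fractions, while the Col5a1 lines run nearly level in pools 1 and 3 after quantile normalization; "too dim" marks the 2 probe sets that were not tested.

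At the brightest probe sets, Col3a1, the only chain of collagen III, had the largest mean difference of the 8 genes with all pools. There Col6a2 had the larger one without pool 2 (3.22, against 3.19 for Col3a1) and with array weights. At its dimmer probe set Col3a1 gave 3.59 without pool 2 and 4.28 with array weights, above both Col6a2 probe sets. Its brightest probe set, 1427883_a_at, read 8.92, 8.75 and 8.96 in ALDH-positive cells of pools 1, 2 and 3, against 4.88, 3.44 and 6.61 in ALDH-negative cells. The ALDH-positive values were close to each other, and the spread lay in the ALDH-negative arrays (8.88 ± 0.11 and 4.98 ± 1.59, SD, n = 3 each). The mean difference of 3.90 (SE 0.77) is 14.9-fold. The pools gave 4.04, 5.31 and 2.35, all in the same direction. The unadjusted limma p was 0.00124 and the adjusted p 0.895. With 3 pairs an exact sign-flip permutation test cannot go below 0.25, two-sided, which was the value here. The difference was 3.19 without pool 2.

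The dimmer Col3a1 probe set, 1427884_at, read 4.28, 4.95 and 6.75 in ALDH-positive cells, against 1.88, 0.75 and 1.96 in ALDH-negative cells. All 3 ALDH-negative values lay under the filter level, so the fold there rests on values below that level. Its mean difference of 3.79 (SE 0.73) was within 0.11 of that of the brighter probe set. The order of the pools differed: pool 3 gave the smallest difference at the brighter probe set (2.35) and the largest at the dimmer one (4.79).

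Col6a2, a short chain of collagen VI, came next. Probe set 1452250_a_at read 6.43, 7.16 and 7.54 in ALDH-positive cells, against 3.002, 2.73 and 4.52 in ALDH-negative cells. The fractions did not overlap, and the pools gave 3.43, 4.43 and 3.02. The mean over the pools was 3.63 (SE 0.67), or 3.22 if pool 2 is left out. The ALDH-negative values of pools 1 and 2 lay close to the filter level of 2.73, so the 12.4-fold ratio depends on signals near that level. The unadjusted limma p was 7.99e-04 and the adjusted p 0.895. The second probe set, 1426947_x_at, whose suffix marks probes that may also match other transcripts, read 5.59, 6.40 and 5.49 in ALDH-positive cells, against 2.94, 2.63 and 3.23 in ALDH-negative cells. It gave a smaller mean of 2.89 (SE 0.67) with the same order of the pools, again over ALDH-negative values near the filter level.

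Col3a1 and Col6a2 were also the most alike of the 7 tested genes over the 6 arrays. After each brightest probe set was centred on its own mean, their root-mean-square distance was 0.56 on the log2 scale, and the other pairs lay between 0.63 and 2.09. Their promoters are shown because these 2 profiles were the closest, with that of Col6a1, the neighbour of Col6a2 on chromosome 10, for contrast. Each run is the 250 bases before the outermost annotated start in RefSeq (GRCm38.p6), 5′ to 3′ on the strand of the gene. Capitals mark the TATA box (letters TATAAA), the CCAAT box and the GC box (letters GGGCGG), each searched on both strands. No marked motifs overlap in these runs.
Col3a1, chr1:45311288-45311537, plus strand: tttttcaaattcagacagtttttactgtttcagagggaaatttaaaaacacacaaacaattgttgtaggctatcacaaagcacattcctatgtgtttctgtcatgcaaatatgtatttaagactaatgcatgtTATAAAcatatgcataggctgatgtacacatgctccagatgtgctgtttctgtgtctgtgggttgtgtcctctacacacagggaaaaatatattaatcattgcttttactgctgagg
Col6a2, chr10:76623631-76623880, minus strand: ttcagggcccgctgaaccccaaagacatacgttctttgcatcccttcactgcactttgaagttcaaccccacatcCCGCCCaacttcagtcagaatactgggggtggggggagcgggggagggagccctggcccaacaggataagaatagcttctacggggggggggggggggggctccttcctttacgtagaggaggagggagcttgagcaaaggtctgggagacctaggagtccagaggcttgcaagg
Col6a1, chr10:76726045-76726294, minus strand: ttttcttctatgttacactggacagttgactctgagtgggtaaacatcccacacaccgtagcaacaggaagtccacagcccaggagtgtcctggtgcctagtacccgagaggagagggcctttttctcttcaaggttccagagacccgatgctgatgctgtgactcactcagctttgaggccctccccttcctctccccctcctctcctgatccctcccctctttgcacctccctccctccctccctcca

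The Col3a1 window holds 1 TATAAA, at 117 to 112 bases before the start. TATAAA occurs in 12.4% of the 32851 mouse windows of this length. The Col6a2 window printed holds 1 GC box, on the opposite strand at 175 to 170 bases before the start, a motif of 32.7% of all windows. A second annotated start of Col6a2, whose window is not printed, has 3 GC boxes, 2 of them overlapping. The Col6a1 window holds none of the 3 motifs, and CCAAT, in 33.8% of all windows, is in none of the 3 printed. A match of letters is a description and not evidence of binding. RefSeq windows were matched for 6 of the 8 genes; Col1a1 and Col5a2 had no entry.

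Col6a1 and Col6a2 lie next to each other on chromosome 10, with no protein-coding gene annotated between them, and their chains are joined in the same collagen VI molecule. Col6a1 has 1 probe set, 1448590_at. It read 6.63, 6.63 and 4.91 in ALDH-positive cells, against 5.25, 5.47 and 5.11 in ALDH-negative cells. Pools 1 and 2 lay higher in ALDH-positive cells, by 1.38 and 1.16, and pool 3 lay lower, at -0.20, so the fractions overlapped. The mean difference was 0.78 (SE 0.68, 95% interval -0.81 to 2.37, limma adjusted p = 0.895), and 0.59 without pool 2. The difference of Col6a2 exceeded that of Col6a1 in each pool, by 2.05, 3.27 and 3.22 (mean 2.85 ± 0.69, SD, n = 3 pools). The exact sign-flip permutation p was 0.25, the smallest that 3 pools allow, and 0.333 after adjustment over the 4 pairs of genes compared in this way.

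Col6a3, the longest chain of collagen VI, was measured by the dim probe set 1424131_at alone. It read 2.92, 1.69 and 4.93 in ALDH-positive cells, against 2.59, 2.05 and 1.59 in ALDH-negative cells. The mean difference of 1.10 (SD of the 3 pools 1.97) rested on pool 3, at 3.34, with 0.33 in pool 1 and -0.36 in pool 2; without pool 2 it was 1.83. Its mean signal lay below the filter level, so it was not tested.

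Col1a1, which encodes the more abundant chain of collagen I, was bright in both fractions of most pools. Probe set 1455494_at read 8.43, 8.12 and 9.08 in ALDH-positive cells, against 4.80, 7.69 and 7.30 in ALDH-negative cells. The lowest ALDH-positive array was above the highest ALDH-negative one, but by less than the spread within the ALDH-negative fraction (8.54 ± 0.49 and 6.60 ± 1.57, SD, n = 3 each). The mean difference was 1.94 (SE 0.79, limma adjusted p = 0.895), or 3.85-fold. Pools 1 to 3 gave 3.63, 0.43 and 1.78. The smallest difference was that of pool 2, but on the values as deposited the pools gave 3.64, 2.17 and 2.02, so the order of pools 2 and 3 depends on the quantile normalization. Without pool 2 it was 2.70, and without pool 1 it was 1.10. The second probe set, 1423669_at, read 7.88, 7.71 and 8.31 in ALDH-positive cells, against 4.32, 6.74 and 6.63 in ALDH-negative cells. It gave 3.56, 0.97 and 1.68 in the pools, in the same order as the first.

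Col1a2, the partner of Col1a1 in collagen I, had 3 probe sets that disagreed. The brightest, 1450857_a_at, read 6.07, 6.89 and 5.17 in ALDH-positive cells, against 4.62, 5.33 and 6.34 in ALDH-negative cells. Pools 1 and 2 lay higher in ALDH-positive cells (1.45 and 1.56) and pool 3 lower (-1.17), with a mean of 0.61 (SE 0.78, 95% interval -1.22 to 2.44, limma adjusted p = 0.895) and of 0.14 without pool 2. Probe set 1423110_at read 4.82, 4.24 and 6.18 in ALDH-positive cells, against 3.74, 2.18 and 5.37 in ALDH-negative cells. There each pool lay higher in ALDH-positive cells, by 1.08, 2.06 and 0.81 (mean 1.32, SE 0.66), although the fractions as a whole overlapped. The third, 1446326_at, was too dim to be tested, with values from 0.96 to 3.12 in ALDH-positive cells and from 1.89 to 3.61 in ALDH-negative cells. Its mean difference was -0.80, and -0.20 without pool 2. The gap between the differences of Col1a1 and Col1a2 at their brightest probe sets was 2.18, -1.13 and 2.95 in the 3 pools, which do not share a sign (exact permutation p = 0.5, and 0.5 after adjustment).

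Col5a2 encodes the minor chain of collagen V and is the neighbour of Col3a1 on chromosome 1, with no protein-coding gene annotated between them. Its brightest probe set, 1422437_at, read 7.74, 6.97 and 7.69 in ALDH-positive cells, against 5.46, 5.25 and 6.99 in ALDH-negative cells. Each pool lay higher, by 2.28, 1.72 and 0.70, while the ALDH-positive array of pool 2 lay just under the ALDH-negative array of pool 3. The mean difference was 1.57 (SE 0.68, limma adjusted p = 0.895), and 1.49 without pool 2. Probe set 1450625_at read 5.52, 4.92 and 6.37 in ALDH-positive cells, against 3.71, 2.19 and 3.81 in ALDH-negative cells, with no overlap. Its pools were the closest to each other of any Col5a2, Col6a2 or Col3a1 probe set, at 1.81, 2.73 and 2.56 (mean 2.37, SE 0.65). The difference of Col3a1 exceeded that of Col5a2 in each pool, by 1.75, 3.60 and 1.65 (exact permutation p = 0.25, and 0.333 after adjustment).

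Col5a1 encodes the major chain of collagen V, and with all pools its brightest probe set separated the fractions least. Without pool 2 the difference of Col1a2 was smaller (0.14, against 0.19 for Col5a1), and with array weights that of Col6a1 was (0.16, against 0.33). Probe set 1416740_at read 6.42, 6.83 and 7.97 in ALDH-positive cells, against 6.49, 6.89 and 7.52 in ALDH-negative cells. Within each pool the fractions lay close, with differences of -0.07, -0.06 and 0.45. On the values as deposited they were -0.25, 1.44 and 0.67, so the closeness in pool 2 depends on the quantile normalization. The mean of 0.11 (SE 0.64) had a 95% interval of -1.38 to 1.59, which still holds changes of more than 2-fold either way. Probe sets 1434479_at and 1416741_at had negative means of -0.33 (SE 0.72) and -0.50 (SE 0.68). Both came from pool 2, at -1.67 and -1.51. Without that pool they were 0.33 and 0.0055. On the values as deposited, 1434479_at gave 0.22, -0.27 and 0.53, and 1416741_at gave -0.19, -1.17 and -0.05. The size of the pool 2 decrease at 1434479_at thus depends on the quantile normalization. The difference of Col5a2 exceeded that of Col5a1 by 2.36, 1.77 and 0.25 in pools 1 to 3 (mean 1.46 ± 1.08, SD, exact permutation p = 0.25, and 0.333 after adjustment).

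**Figure D2:**
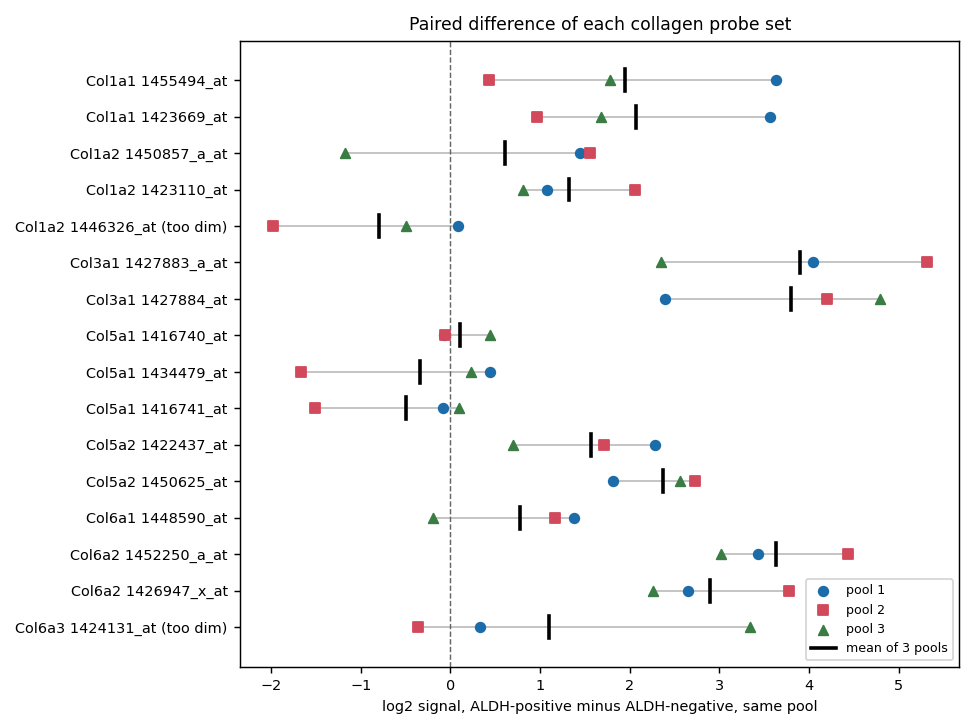
Difference in log2 signal between ALDH-positive and ALDH-negative cells of the same pool (horizontal axis) for each collagen probe set; symbols are pools and black bars their mean. All 3 pools lie right of 0 for both probe sets of Col1a1, Col3a1, Col5a2 and Col6a2 and for 1 of the 3 of Col1a2, and pool 2 sets the lowest value of every Col5a1 probe set but the brightest.

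By pool, the median over the brightest probe sets of the 7 tested genes was 2.28 in pool 1, 1.56 in pool 2 and 0.70 in pool 3. The median of the mean differences was 1.57, and 1.49 without pool 2, beside -0.08 and 0.039 over all 12814 genes tested. The summed linear signal of the 8 brightest probe sets was 1311 to 1780.0 in ALDH-positive cells and 268 to 708 in ALDH-negative cells.

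A fit that weights arrays by their residual spread called 7 of the 14 collagen probe sets higher at an adjusted p of 0.05, beside 5.47% of all probe sets. These were both probe sets of Col1a1, Col3a1 and Col6a2 and 1450625_at of Col5a2. That fit gave both arrays of pool 3 a weight of 4.87 and both arrays of pool 2 a weight of 0.158, so its differences rest mainly on pool 3. It gave 2.77 (SE 0.41, limma adjusted p = 8.74e-04) for Col3a1, 3.14 (SE 0.37, adjusted p = 1.11e-04) for Col6a2 and 2.12 (SE 0.41, adjusted p = 0.00402) for Col1a1. Col1a2 turned to -0.56 there (SE 0.45, adjusted p = 0.496).

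**Figure D3:**
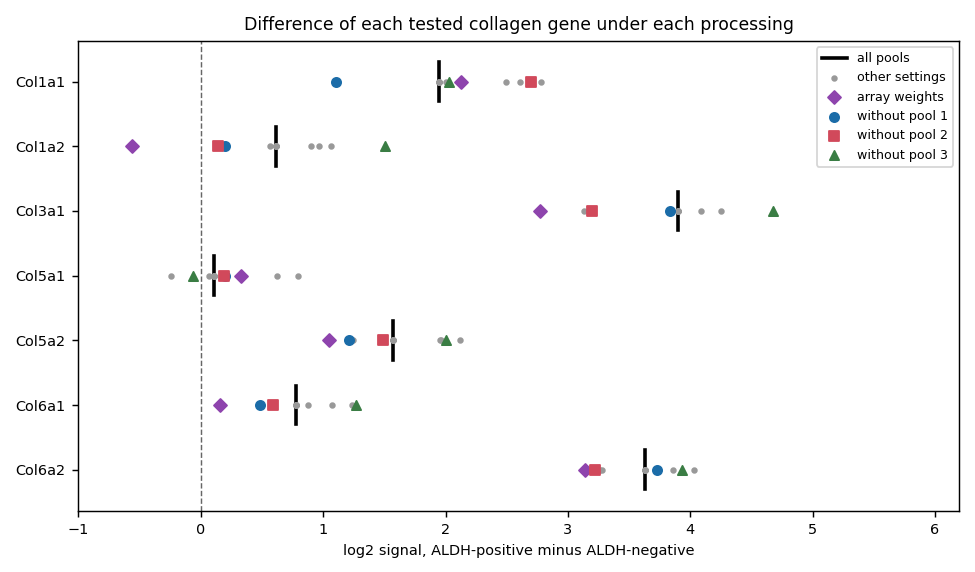
Difference in log2 signal, ALDH-positive minus ALDH-negative (horizontal axis), at the brightest probe set of the 7 tested collagen genes, or over the mean of a gene's probe sets in 1 of the other settings; the black bar uses all pools, and points are the alternative settings. Col3a1 stays between 2.77 and 4.67 and Col6a2 between 3.14 and 4.03, while Col1a2 and Col5a1 have points on both sides of 0.

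Other collagen genes were taken from fixed lists. Of all genes tested, 46.0% had a positive mean. Of all probe sets tested, 11.5% lay higher and 10.8% lower in all 3 pools. Counts in the lists below stand beside these shares. Of 6 further fibrillar collagen genes, 3 were bright enough to be tested, with a median difference of -0.20 and of 0.41 without pool 2, and none passed after adjustment. Col11a1, a minor fibrillar chain, lay higher in all 3 pools (0.23, 1.29 and 2.19, mean 1.24, SE 0.70). Of 16 tested genes of the remaining collagen types, 8 had a positive and 8 a negative mean, with a median of -0.05 and of 0.28 without pool 2, and none passed after adjustment. Col8a1, a short-chain collagen, averaged 7.10 ± 0.36 in ALDH-positive cells and 4.42 ± 2.23 in ALDH-negative cells (SD, n = 3 each), a difference of 2.68 (SE 0.85) and of 1.61 without pool 2. Col4a2, a basement membrane chain, differed by 2.50 (SE 1.29) and by 0.34 without pool 2, whose own difference was 6.83. Col4a5, another basement membrane chain, differed by 1.13 (SE 0.75) and by 0.36 without pool 2. Col15a1, of the basement membrane zone, differed by -1.26 (SE 0.74) and by -0.54 without pool 2. It passed the filter through the ALDH-negative fraction alone, with an ALDH-positive mean of 2.66, so being tested and being lower are linked.

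Genes that fold and modify collagen chains were split. Of 21 tested, 10 had a positive and 11 a negative mean (median -0.07, and 0.16 without pool 2). In all 3 pools 1 lay higher and 1 lower, beside 11.5% and 10.8% of all probe sets tested, and none passed after adjustment. The lower one was P3h3, a prolyl 3-hydroxylase (-0.13, -1.17 and -0.16, mean -0.49, and -0.15 without pool 2). The higher one was Serpinh1, the collagen chaperone HSP47, with pool differences of 0.79, 5.59 and 0.65 (mean 2.34, SE 1.05, and 0.72 without pool 2). P4hb, the beta subunit of prolyl 4-hydroxylase, gave -0.14, 8.27 and 2.86 (mean 3.66, SE 1.42, and 1.36 without pool 2). The lysyl hydroxylase Plod2 differed by 1.56 (SE 0.90) and by 0.47 without pool 2. P4ha3, an alpha subunit of prolyl 4-hydroxylase, differed by -1.92 (SE 0.84) and by -1.17 without pool 2.

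Among genes for the removal of procollagen propeptides, 2 of 5 tested had a positive mean (median -0.20, and 0.38 without pool 2). The enhancer protein Pcolce was bright in most arrays and differed by -0.40, 7.37 and 0.15 (mean 2.37, SE 1.44, and -0.12 without pool 2). The propeptidase Adamts3 differed by 0.32 (SE 0.70), and by 0.84 without pool 2. Mep1a, a meprin, and Pcolce2 differed by -0.89 (SE 0.87) and -0.30 (SE 0.79), but by 0.27 and 0.61 without pool 2. None passed after adjustment.

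Of 7 tested small proteoglycans that bind collagen fibrils, 2 had a positive and 5 a negative mean (median -0.57, and 0.31 without pool 2). Ogn, which encodes osteoglycin, lay higher in all 3 pools (0.62, 1.93 and 4.85, mean 2.47, SE 0.91). It passed the filter through the ALDH-positive fraction alone, with an ALDH-negative mean of 1.97. Prelp and Omd lay lower in all 3 pools, by means of -1.79 (SE 0.82) and -0.97 (SE 0.65), with -0.76 and -1.16 without pool 2. Both passed through the ALDH-negative fraction alone, with ALDH-positive means of 2.70 and 2.39. For Ogn, Prelp and Omd, being tested and the direction are thus linked. Dcn, which encodes decorin, gave 1.99, 1.21 and -0.67 (mean 0.85, SE 0.75). None of the 7 passed after adjustment.

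Of 8 tested genes of collagen breakdown, 6 had a positive mean, beside 46.0% of all genes tested (median 0.71, and 0.58 without pool 2). In all 3 pools 3 lay higher, beside 11.5% of all probe sets tested, and none passed after adjustment. The 3 were the gelatinase Mmp2, which differed by 1.31, 3.90 and 1.03 (mean 2.08, SE 0.79, and 1.17 without pool 2), its activator Mmp14, by 1.96, 1.48 and 0.32 (mean 1.25, SE 0.68), and the inhibitor Timp3, by 1.74, 0.83 and 1.64 (mean 1.40, SE 0.65). Timp1, another inhibitor, gave -0.39, 6.12 and -2.30 (mean 1.14, SE 1.47, and -1.35 without pool 2). The collagenases Mmp1a, Mmp8 and Mmp13 were too dim to be tested. Of 6 tested collagen receptors, none lay in the same direction in all 3 pools and none passed after adjustment (median 0.51, and 0.24 without pool 2). The integrin subunit Itgb1 differed by 0.99 (SE 0.70), and by 0.57 without pool 2. The discoidin receptors Ddr1 and Ddr2 differed by 0.58 (SE 0.68) and -0.58 (SE 0.68). Leaving out pool 2 gave 0.52 for Ddr1 and -0.18 for Ddr2. The collagen VI binding receptor Antxr1 differed by 0.47 (SE 0.72), and by -0.032 without pool 2.

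**Figure D4:**
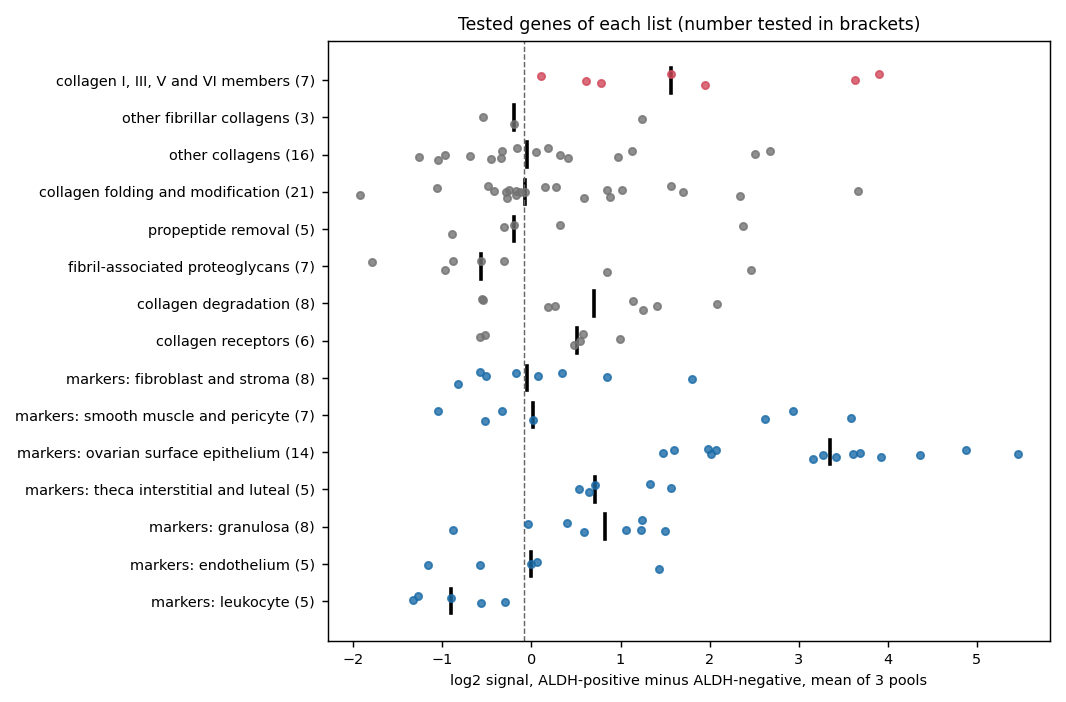
Mean difference over the 3 pools in log2 signal, ALDH-positive minus ALDH-negative (horizontal axis), of each tested gene (points) by list; black bars are list medians and the dashed line is the median of all genes tested, -0.08. The median of the collagen I, III, V and VI genes is 1.57, that of the surface epithelium markers 3.35 and that of the fibroblast and stroma markers -0.05, which is 0.46 without pool 2.

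The fractions were compared on lists of cell type markers, which were chosen with earlier results of these data known. All 14 surface epithelium markers on the list were tested and lay higher in ALDH-positive cells in all 3 pools. The share of all probe sets tested was 11.5%. The list median was 3.35. Bnc1, Lrrn4 and Cdh1 passed the filter through the brighter fraction alone, with ALDH-negative means of 1.78, 1.83 and 2.62. For these genes, being tested and being higher are linked. The other markers on the list had ALDH-negative means above the filter level. The summed linear signal of the 14 markers was 2537 to 3569.9 in ALDH-positive cells and 314 to 586 in ALDH-negative cells. The fibroblast and stroma list, which holds no collagen, had a median of -0.05, and of 0.46 without pool 2. Of its 16 markers on the array, 8 were too dim to be tested, namely Lum, Dpt, Mfap5, Tcf21, Fap, Cd34, Twist2 and Islr. Of the 8 tested, 4 had a positive mean. The summed signal of all 16 was 199 to 324 in ALDH-positive cells and 200.3 to 440 in ALDH-negative cells. Thy1, a surface protein of fibroblasts and other cells, was the 1 that lay higher in all pools (1.80, SE 0.65). Its ALDH-negative mean was 2.68, just under the filter level of 2.73. The receptors Pdgfra and Pdgfrb differed by 0.35 (SE 0.66) and -0.82 (SE 0.83). Leaving out pool 2 gave 0.31 for Pdgfra and 0.20 for Pdgfrb.

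Of the smooth muscle and pericyte markers, Acta2, Tagln and Myl9, which encode contractile proteins also made by activated fibroblasts, lay higher in all pools, by 3.59 (SE 0.68), 2.94 (SE 0.67) and 2.62 (SE 0.71). The other 4 of 7 tested lay higher in 2 pools or fewer, Cnn1 and Rgs5 were too dim to be tested, and Myh11, the smooth muscle myosin, differed by -1.05 (SE 0.96) and by 0.073 without pool 2. The list median was 0.02, and 0.67 without pool 2. The summed signal of the 9 markers was 1273 to 1652 in ALDH-positive cells, against 192 to 371 in ALDH-negative cells. In ALDH-positive cells most of it came from Acta2, Tagln and Myl9, which averaged 9.66, 8.16 and 6.64, with Myh11 at 3.84. It therefore does not speak for the list as a whole. The part of smooth muscle cells and pericytes, and of the surface epithelium, in the collagen differences was not tested. Theca and luteal, granulosa, endothelial and leukocyte lists had medians of 0.71, 0.82, -0.01 and -0.90, and of -0.39, -0.08, 0.21 and -0.30 without pool 2. The theca and luteal sum was 3254 to 4827 in ALDH-positive cells, against 7104, 292 and 4539 in ALDH-negative cells of pools 1 to 3. The granulosa sum was 1296 to 1724, against 2307, 225 and 1481. Both sums were thus high in both fractions, except on the ALDH-negative array of pool 2. A linear sum rests mostly on its brightest genes, among them Fdx1, Hsd3b1 and Cyp11a1 here, and Inhba and Inha. Other markers were dim or missing: Cyp17a1 and Fshr were too dim to be tested. Insl3, Lhcgr and Cyp19a1 had no probe set annotated to them alone. How far these sums reflect the cell types was not tested.

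Outside the 8 genes, the profile over the 6 arrays nearest to the average of the 7 tested collagen genes was that of Pmepa1, a membrane protein induced by TGF-beta, at a root-mean-square distance of 0.16 after centring. Pmepa1 read 7.53, 7.43 and 7.65 in ALDH-positive cells, against 5.31, 5.62 and 6.97 in ALDH-negative cells. Next came Limch1, Dctn6, Adgrl3 and Oasl2, at 0.30 to 0.33. Nearest to Col3a1 alone were the keratin gene Krt18 (0.32), the actin gene Acta2 (0.33) and the adaptor gene Grb10 (0.38). Grb10 read 7.66, 7.69 and 7.98 in ALDH-positive cells, against 4.52, 1.91 and 5.22 in ALDH-negative cells. The 6 arrays share pools and the array that stood apart, so these distances describe the arrays.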

How the data were processed

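The deposited table holds 1 value per probe set and array on a scale taken as log2 signal from its range, since no header states it; how the authors summarised and normalized the arrays is not given in the sources used here. Per the labels' protocols, RNA was amplified (Ovation Pico WTA) and biotin was attached before hybridization. From 45101 probe sets, 64 controls were removed. Array medians differed by 0.46, so the arrays were quantile normalized. Gene symbols are those of the platform annotation held by GEO, brought up to date through Entrez identifiers (34741 of 34945 with 1 symbol matched, RefSeq GRCm38.p6). All columns were used. Array number limits the precision.

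The lower 40% of probe sets by mean were removed, and 27022 were tested with limma 3.58.1 (R 4.3.3; lmFit, eBayes) with the pool as a block, because the series design describes a paired comparison, with Benjamini-Hochberg adjustment. Pools are separate mice. After removal of the group means, the arrays of a pool correlated with each other at 0.38, -0.19 and 0.35 in pools 1 to 3; the highest correlation between arrays of different pools was 0.42. The limma steps were tested on simulated data. The 95% intervals come from the same fit, a fold is the mean log2 difference turned back to the linear scale, and exact tests flip signs of pool differences.

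The members and lists were chosen with earlier results of these data known. Named genes are the members, up to 4 genes of smallest unadjusted p in each of 14 lists, the 5 nearest to the average collagen profile and the 3 nearest to Col3a1. Not every gene that this rule allows is named. Mmp8, Mmp13, Pdgfra, P3h3, Lrrn4, Cdh1 and genes listed as too dim or without a probe set of their own were named outside it.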

Additional observations from a re-analysis of the deposited data

How the results depend on the processing

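Across 13 alternatives, no collagen probe set passed the adjusted threshold except with array weights and the replicate block, where 7 did. Leaving out 1 pool gave 0 calls each time and a median difference of 1.10 to 2.00 (main value 1.57). With no replicate block the count was 0 and the median 1.57; without the block and without the ALDH-negative array of pool 2 it was 0 and 1.24. The median was 1.95 without quantile normalization and 2.12 when arrays were centred on their medians, a scaling under which the median of all probe sets tested was 0.22, beside -0.036. Col1a1, Col3a1, Col5a2, Col6a1 and Col6a2 stayed above 0 in all 13. Col1a2 turned to -0.56 with array weights. Col5a1 ranged from -0.064 to 0.19 when 1 pool was left out and was -0.24 when its probe sets were averaged, 0.62 without quantile normalization and 0.79 with median centring, beside 0.11. The cause of these turns was not tested. Dim probe sets limit what can be said of Col6a3 and of the ALDH-negative level of Col3a1.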
